A study of Mus musculus with 12 samples.

Results

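The genes described here encode the proteasome, and were chosen by name: protein-coding genes on mouse chromosomes 1 to 19 (GRCm38) whose symbols start with Psma, Psmb, Psmc, Psmd, Psme, Psmf or Psmg. The rule gives 50 of 20558 protein-coding genes. For each gene the question was whether its midpoint lay in a lamina-associated domain (LAD), a stretch of chromatin at the nuclear envelope. Mouse embryos were compared with and without an siRNA against Rif1. LADs were mapped by DamID, in which the bacterial methyltransferase Dam, fused to lamin B1, marks GATC sites near the lamina. Embryos of the cross (C57BL/6J xCBA) x DBA/2J received a control siRNA (siControl) or an siRNA against Rif1 (siRif1), 20 µM, as zygotes 17 to 18 h after hCG. All 4 groups, the controls included, were also injected in both blastomeres at the 2-cell stage, 46 to 48 h after hCG. They received Tir1 (250 ng/µL), membrane-eGFP (100 ng/µL) and AID-Dam-LaminB1 (20 ng/µL), the fusion with a degron that auxin and Tir1 act on, and were kept in 500 µM auxin until 54 h (4-cell groups) or 66 h (8-cell groups). Collection was at 60 to 62 h for late 4-cell and 72 to 74 h for late 8-cell embryos. Each group has 3 replicates of 16 to 24 pooled blastomeres, which is 4 to 6 embryos (4-cell groups) or 2 to 3 embryos (8-cell groups).

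The groups are named by siRNA and stage. For each, the authors deposited 1 LAD list made from its 3 replicates, so there are 4 lists, no values for single replicates and no spread between them. No difference between groups below carries a p-value or an error, and read depth is unknown. At the 4-cell stage the siControl list held 601 LADs over 785.7 Mb and the siRif1 list 644 over 1038.4 Mb. At the 8-cell stage the numbers were 746 over 1066.7 Mb and 738 over 1023.5 Mb. They hold no RNA levels, so neither the knockdown nor expression of these genes was measured.

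The proteasome is the barrel-shaped protease that degrades ubiquitin-tagged proteins in the cytoplasm and nucleus. Its 20S core is built of rings of alpha subunits, which gate entry, and beta subunits, some of which cut peptide bonds. The 19S particle, made of ATPases and non-ATPase subunits, recognises tagged substrates, removes ubiquitin and unfolds them. Assembly factors, alternative activators and an inhibitor act on these particles. Because every dividing cell needs the complex, its genes are classed as housekeeping genes, and such genes usually lie away from the lamina, in gene-rich chromatin.

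Most proteasome genes were outside LADs, and 36 of 50 were outside in all 4 lists. This is 72%, against 58.3% of all protein-coding genes. Psma1 and Psma2, both for alpha subunits of the 20S core, were in LADs in all 4 lists. The other 12 genes differed between lists. These were Psma4, the ATPase genes Psmc1 and Psmc2, the 19S genes Psmd2, Psmd6, Psmd7 and Psmd14, the assembly factor genes Psmg1 and Psmg4, the activator genes Psme4 and Psme2b, and the inhibitor gene Psmf1. A state that differed was found in 24% of proteasome genes and in 32.2% of all protein-coding genes. A single list held 8 genes (16%, against 14.1%), exactly 2 lists held 3 (6%, against 9.06%), exactly 3 lists held 1 (2%, against 9.04%) and all 4 held 2 (4%, against 9.47%). At least 1 list held 14 (28%, against 41.7%). Of these 14 genes 12 differed between lists, and of the 8574 protein-coding genes in at least 1 list 6628 did.

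**Figure D1:**
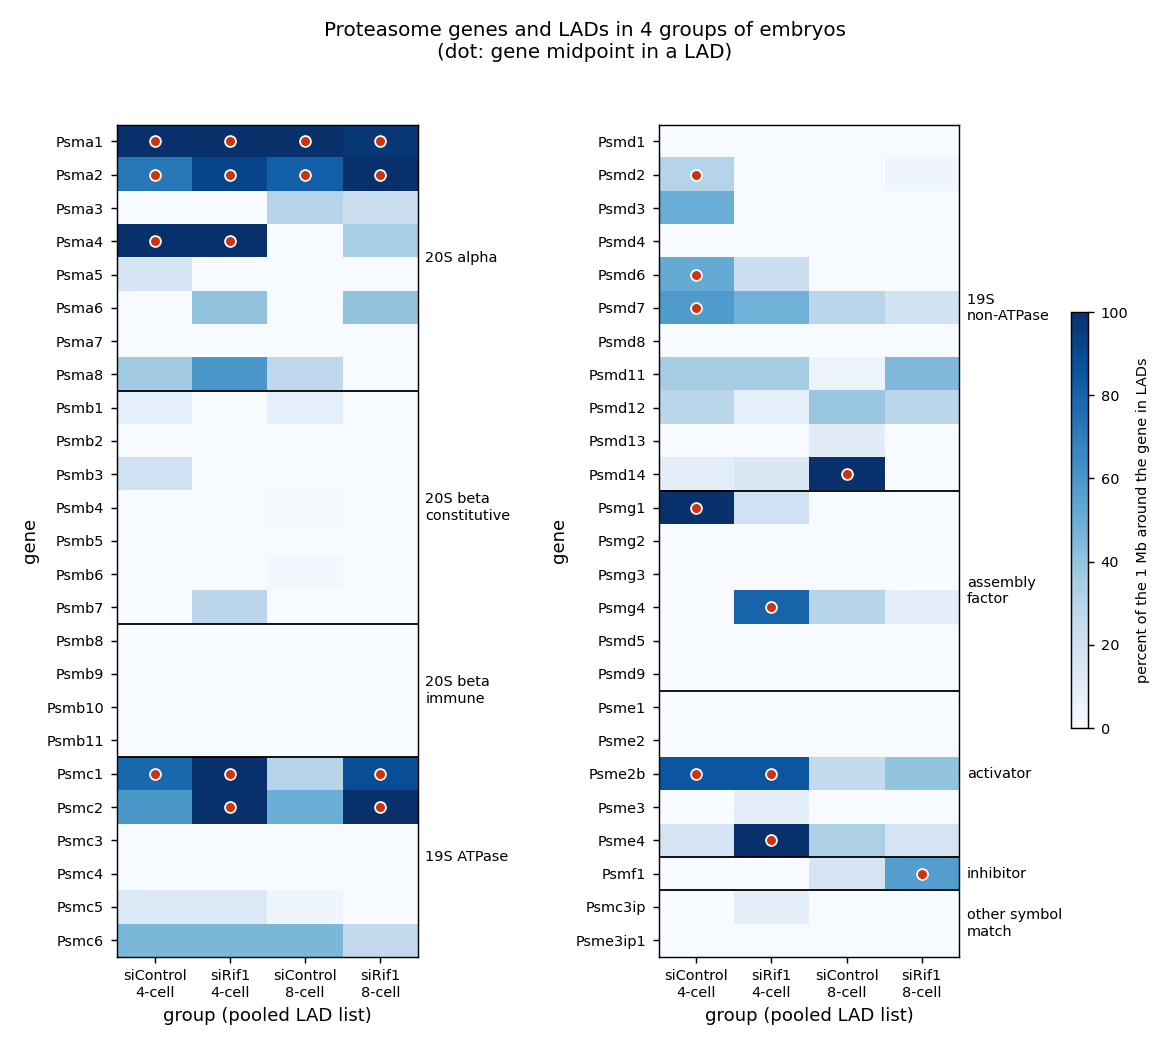
Each row is 1 of the 50 proteasome genes, ordered by role, and each column a LAD list. Colour gives the percent of the 1 Mb centred on the gene that lay in LADs, and a dot marks a gene whose midpoint was in a LAD. Psma1 and Psma2 have 4 dots each, the 11 beta subunit genes have none, and the 8-cell columns hold fewer dots than the 4-cell columns.

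By list, 9 proteasome genes were in LADs in siControl 4-cell embryos (18%, against 24.2% of all protein-coding genes). With siRif1 at the same stage there were 8 (16%, against 23.5%). In 8-cell embryos there were 3 in siControl (6%, against 25.8%) and 5 in siRif1 embryos (10%, against 23.8%). The share of proteasome genes was thus below that of all protein-coding genes in each of the 4 lists. The 2 shares lay furthest apart in siControl 8-cell embryos. In that list, however, Psmc2, Psmc1, Psmg4, Psmc6 and Psma3 lay only 5.5 to 82.6 kb outside a LAD. The median border distance of proteasome genes (negative outside LADs) was -529.5 kb there, against -708.3, -795.4 and -844 kb in the other lists. For all protein-coding genes it was -469.5 kb there.

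The sequences shown are the 250 bases before the RefSeq start (GRCm38.p6) of Psma1 and Psma2, in LADs throughout, of Psmc2, in LADs in siRif1 embryos alone, and of Psmb5, outside LADs throughout. Capitals mark the letters CCAAT, the box bound by NF-Y, or TGACNNNGC, the core of the antioxidant response element, which Nrf1, the main activator of proteasome genes, binds. Both strands were searched, and no match of the first overlapped a match of the second in any proteasome promoter.
Psma1, chr7:114276117-114276366, minus strand: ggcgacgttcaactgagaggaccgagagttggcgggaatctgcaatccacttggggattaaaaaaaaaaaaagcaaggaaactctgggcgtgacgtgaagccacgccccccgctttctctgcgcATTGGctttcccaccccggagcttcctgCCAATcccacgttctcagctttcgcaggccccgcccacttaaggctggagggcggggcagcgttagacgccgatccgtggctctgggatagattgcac
Psma2, chr13:14612992-14613241, plus strand: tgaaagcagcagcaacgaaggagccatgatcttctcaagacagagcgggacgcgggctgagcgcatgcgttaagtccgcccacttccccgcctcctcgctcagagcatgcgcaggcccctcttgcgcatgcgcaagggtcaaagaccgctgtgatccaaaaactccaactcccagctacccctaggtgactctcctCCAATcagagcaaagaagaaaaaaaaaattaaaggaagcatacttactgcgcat
Psmc2, chr5:21785025-21785274, plus strand: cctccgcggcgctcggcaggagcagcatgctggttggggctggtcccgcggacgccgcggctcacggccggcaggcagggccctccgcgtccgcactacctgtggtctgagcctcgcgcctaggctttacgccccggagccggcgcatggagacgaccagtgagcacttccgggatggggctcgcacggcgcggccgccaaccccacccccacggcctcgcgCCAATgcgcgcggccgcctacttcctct
Psmb5, chr14:54617996-54618245, minus strand: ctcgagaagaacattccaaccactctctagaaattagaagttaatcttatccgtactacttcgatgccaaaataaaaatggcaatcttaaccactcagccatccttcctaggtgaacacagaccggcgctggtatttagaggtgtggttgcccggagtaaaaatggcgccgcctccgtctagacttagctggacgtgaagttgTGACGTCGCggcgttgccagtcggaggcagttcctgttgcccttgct

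Promoter sequences were found for 42 of the 50 genes. The letters TGACNNNGC occurred in 5 of these 42 (11.9%), in Psmb5, Psmb6, Psmc6, Psmd9 and Psmd12, against 10.7% of 16457 promoters of protein-coding genes over the same length. CCAAT occurred in 15 (35.7%, against 36.3%). The dinucleotide CG was counted a median of 14.5 times per proteasome promoter and 10 times per promoter overall. GATC, the site that Dam methylates, was present in 21 (50%, against 40.5%). The 5 genes with TGACNNNGC were outside LADs in all 4 lists, as 5 of 29 such promoters (17.2%). It was found in 0 of the 13 promoters of genes that were in a LAD in at least 1 list. CCAAT was found in 5 of these 13 (38.5%) and in 10 of the 29 (34.5%). GATC was found in 7 of the 13 (53.8%) and in 14 of the 29 (48.3%). The 10.7% of all promoters was not split by LAD state, and a link between these letters and LADs was not tested. These counts describe letters in a short window, and LADs were mapped at a far coarser scale.

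Among the 20S core genes, 3 of 8 alpha subunit genes (37.5%) and 0 of 11 beta subunit genes were in a LAD in any list, against 41.7% of all protein-coding genes. Psmb4, Psmb5, Psmb6, Psmb8, Psmb9, Psmb10 and Psmb11 had 34 to 54 other protein-coding genes within 500 kb. The remaining beta genes had 9 to 24. Psma5 had 30 and the other alpha genes 3 to 17. The part of gene density in this contrast was not tested. Psma1 (chromosome 7, 114264550 to 114276116) lay 1429.7 kb inside a LAD in siControl 4-cell, 870.3 kb in siRif1 4-cell, 870.3 kb in siControl 8-cell and 470.3 kb in siRif1 8-cell embryos. Its position was deep in all 4. The enclosing LAD was 9 Mb long in siControl 4-cell embryos, from 106700001 to 115700000 with 122 protein-coding genes. With siRif1 at the same stage it was 2.6 Mb long, with 11 protein-coding genes. The 8-cell LADs were 2.4 Mb (siControl, 11 genes) and 1.9 Mb (siRif1, 9 genes) long.

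Psma2 (chromosome 13, 14613242 to 14625673) lay inside a LAD by 219.5 kb (siControl) and 419.5 kb (siRif1) at the 4-cell stage, and by 319.5 kb (siControl) and 980.5 kb (siRif1) at the 8-cell stage. These LADs were 2, 4.4, 3.3 and 2.1 Mb long, in the same order. LADs thus held Psma2 in every list, by at least 2 bins of the 100-kb grid on which LADs are given. The surroundings of both genes were gene-poor, with 7 other protein-coding genes within 500 kb of Psma1 and 4 within 500 kb of Psma2, against a median of 15 for all protein-coding genes.

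Psma4 (chromosome 9, 54950781 to 54958034), for another alpha subunit, was in a LAD at the 4-cell stage and not at the 8-cell stage, whichever siRNA was given. In 4-cell embryos it lay 954.4 kb inside a LAD with siControl and 1154.4 kb inside with siRif1. By contrast, at the 8-cell stage it lay 1854.4 kb outside the nearest LAD in siControl and 154.4 kb outside in siRif1 embryos. The LADs that held it were 2.6 Mb long at the 4-cell stage in both groups, and the stretch absent from the siControl 8-cell list (54000001 to 56600000) held 31 protein-coding genes. Its neighbours there include Chrna5, Chrna3 and Chrnb4, a cluster of nicotinic receptor genes. In siRif1 embryos the stretch absent at the 8-cell stage was shorter, 1.6 Mb with 19 protein-coding genes, starting at 54800001.

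The remaining alpha genes were outside LADs in every list. Psma6 lay 98.7 kb outside a LAD in both siRif1 lists, and Psma3 82.6 kb outside in siControl 8-cell embryos. Psma8, which encodes the alpha subunit of the testis proteasome, was outside at distances of 134.2 to 565.8 kb. The 7 constitutive beta genes include those of the catalytic subunits Psmb5, Psmb6 and Psmb7, and the 4 immune beta genes Psmb8, Psmb9, Psmb10 and Psmb11 encode the subunits that replace them in immune cells and the thymus. Around all 4 immune genes no LAD base was found within 500 kb in any list, which held for 30.5% of all protein-coding genes. Psmb8 and Psmb9 lie 15.1 kb apart on chromosome 17, and Psmb5 and Psmb11 11.4 kb apart on chromosome 14, so each pair shares its position and is not 2 independent observations.

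Among the 6 ATPase genes of the 19S particle, Psmc1 and Psmc2 were in LADs in some lists (33.3%, against 41.7% of all protein-coding genes). Psmc2 (chromosome 5, 21785275 to 21803787) was in a LAD in both siRif1 lists and in neither siControl list. It lay 1505.5 kb inside a LAD in siRif1 4-cell and 505.5 kb inside in siRif1 8-cell embryos. In siControl it lay 194.5 kb outside at the 4-cell stage, and 5.5 kb outside at the 8-cell stage, when a LAD border ran through the gene and 20.5% of its body was LAD. The nearest borders in the control lists are thus within 2 bins of the grid. The stretches that differed closed gaps between control LADs: 0.4 Mb at the 4-cell stage (21600001 to 22000000), with 6 protein-coding genes, and 0.5 Mb at the 8-cell stage (21300001 to 21800000), with 10. Psmc2 shared them with the genes Armc10, Napepld, Pmpcb and Dnajc2. Psmc2 was the 1 proteasome gene that was LAD in both siRif1 lists alone (2%, against 0.963% of all protein-coding genes).

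Psmc1 (chromosome 12, 100110202 to 100123364) was in a LAD in every list but siControl 8-cell. It lay 283.2 kb inside a LAD in siControl 4-cell, 583.2 kb in siRif1 4-cell and 383.2 kb in siRif1 8-cell embryos, and 16.8 kb outside in siControl 8-cell embryos. The call in siControl 8-cell embryos thus rests on a border less than 1 bin away, where the stretch that differs starts (100100001). Psmc1 was the 1 proteasome gene with this pattern (2%, against 1.52% of all protein-coding genes). LADs of 2.4 to 3 Mb held the gene in the other lists. Of the other ATPase genes, Psmc6 came nearest to a LAD, at 39.4 kb in 3 of 4 lists and 239.4 kb in siRif1 8-cell embryos.

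**Figure D2:**
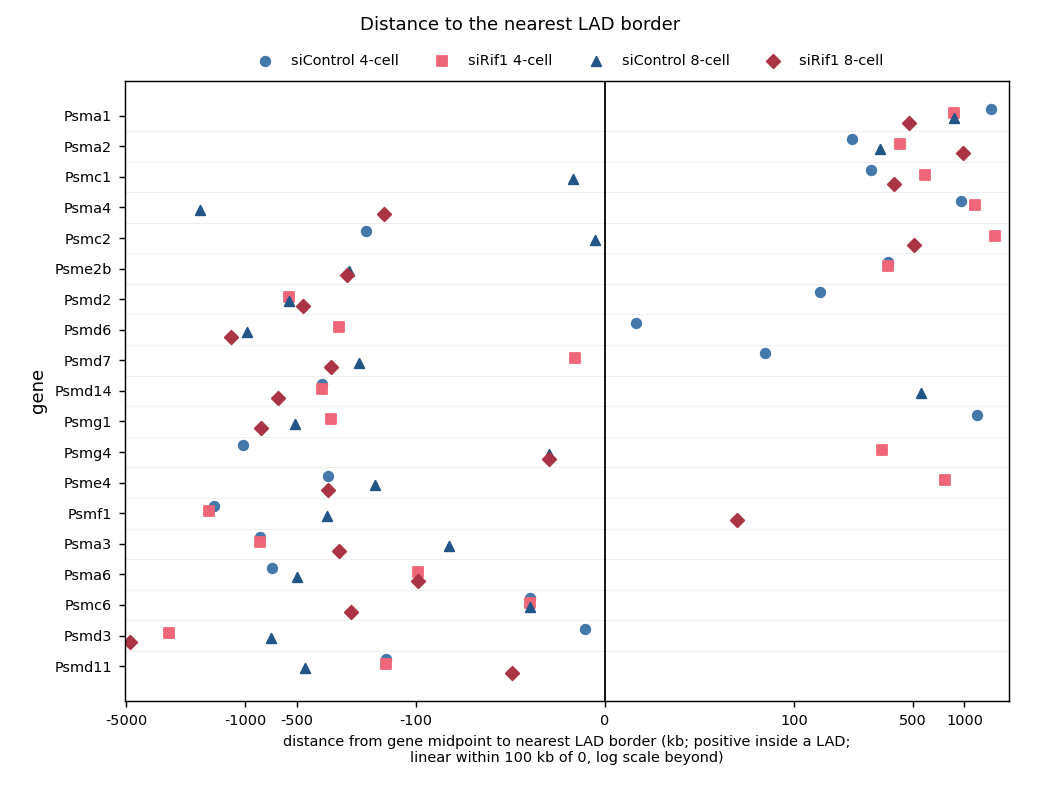
For the 14 genes in a LAD in at least 1 list and the 5 others with a LAD border within 100 kb, the horizontal axis gives the distance in kb from the gene midpoint to the nearest LAD border, positive inside a LAD (linear within 100 kb of 0, log scale beyond), with a symbol for each list. Psmc2 is to the right of 0 in both siRif1 lists and to the left in both siControl lists, and the siControl 8-cell points of Psmc1 and Psmc2 lie close to 0.

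Of the 11 non-ATPase genes of the 19S particle, 4 were in a LAD in at least 1 list (36.4%, against 41.7% of all protein-coding genes). Each of the 4 was in a LAD in a single list (against 14.1% of all protein-coding genes), 3 of them in siControl 4-cell embryos. With Psmg1, 4 proteasome genes were LAD in that list alone (8%, against 4.87% of all protein-coding genes). Psmd2 (chromosome 16, 20651122 to 20663414) encodes the largest scaffold of the particle along with Psmd1. It lay 142.7 kb inside a LAD in siControl 4-cell embryos and 557.3 kb outside in siRif1 embryos of that stage. At the 8-cell stage it lay 557.3 kb (siControl) and 457.3 kb (siRif1) outside. That LAD was only 0.3 Mb long (20500001 to 20800000), stood free of LADs in the lists compared with it, and held 17 protein-coding genes, among them the translation factor genes Eif4g1 and Eif2b5.

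Psmd6 (chromosome 14, 14112185 to 14120945), for a lid subunit, lay 16.6 kb inside a LAD in siControl 4-cell embryos, close to its border. It lay 283.4 kb outside in siRif1 4-cell, 983.4 kb in siControl 8-cell and 1216.6 kb in siRif1 8-cell embryos. Psmd7 (chromosome 8, 107580380 to 107588482), for the lid subunit that pairs with the deubiquitinase, lay 84.4 kb inside a LAD in siControl 4-cell embryos. It lay 15.6 kb outside in siRif1 4-cell, 215.6 kb in siControl 8-cell and 315.6 kb in siRif1 8-cell embryos. Between the 4-cell lists the state of Psmd7 turned on a single bin of the grid, from 107500001 to 107600000, which holds no other gene midpoint.

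Psmd14 (chromosome 2, 61711694 to 61800376) encodes the deubiquitinase of the lid, and was in a LAD in siControl 8-cell embryos alone (2%, against 3.68% of all protein-coding genes). It lay 556 kb inside a LAD there, and 356 kb outside in both 4-cell lists and 644 kb outside in siRif1 8-cell embryos. None of these values is near a border. The LAD ran from 61200001 to 62500000, and 100% of the 1 Mb around the gene was in LADs in siControl 8-cell embryos, against 0% in siRif1 8-cell embryos. The stretch that differed between the 8-cell lists (61200001 to 62400000) also held Tank, Tbr1, Slc4a10 and Dpp4. Psmd3, outside LADs in every list, lay 10.7 kb outside in siControl 4-cell embryos, and Psmd11 lay 49.1 kb outside in siRif1 8-cell embryos.

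Among the 6 assembly factor genes, Psmg1 and Psmg4 were each in a LAD in a single list (33.3%, against 14.1% of all protein-coding genes). Psmg1 (chromosome 16, 95979933 to 95990960), for a chaperone of the alpha ring, lay 1185.4 kb inside a LAD in siControl 4-cell embryos. It lay 314.6 kb outside in siRif1 4-cell, 514.6 kb in siControl 8-cell and 814.6 kb in siRif1 8-cell embryos. The gene was thus deep in a 3.1-Mb LAD in a single list and well outside LADs in the other lists. The stretch that differed from siRif1 4-cell embryos (95500001 to 96300000) held 8 protein-coding genes, among them Ets2, Brwd1 and Hmgn1.

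Psmg4 (chromosome 13, 34162964 to 34178172), also an assembly chaperone gene, was in a LAD in siRif1 4-cell embryos alone. It lay 329.4 kb inside a 0.8-Mb LAD there, 1029.4 kb outside in siControl 4-cell and 29.4 kb outside in both 8-cell lists. The stretch held 10 protein-coding genes, among them Serpinb6a, Ripk1, Tubb2a and Tubb2b.

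The activators open the core without the 19S particle. Psme4 (chromosome 11, 30771775 to 30881150), which encodes PA200, a nuclear activator, was in a LAD in siRif1 4-cell embryos alone, as Psmg4 was (4% together, against 1.81% of all protein-coding genes). It lay 773.5 kb inside a LAD there, and 326.5 kb outside in siControl embryos of that stage. At the 8-cell stage it lay 173.5 kb (siControl) and 326.5 kb (siRif1) outside. The stretch that differed from siControl 4-cell embryos, 1.1 Mb from 30500001 to 31600000, held 7 protein-coding genes and extended a LAD present in both lists.

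Psme2b (chromosome 11, 48945345 to 48946410), a short gene similar to Psme2, was in a LAD in both 4-cell lists and in neither 8-cell list, as Psma4 was (4% together, against 2.09%). It lay 354.1 kb inside in both 4-cell lists, 245.9 kb outside in siControl 8-cell and 254.1 kb outside in siRif1 8-cell embryos. Its stretch on chromosome 11 held 21 protein-coding genes in the control comparison, among them the interferon-induced genes Irgm1, Tgtp1 and Ifi47. Psme1 and Psme2, the subunit genes of the interferon-induced activator PA28, had no LAD base within 500 kb in any list, which held for 30.5% of all protein-coding genes.

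Psmf1 (chromosome 2, 151716062 to 151744199) encodes the inhibitor PI31, and was in a LAD in siRif1 8-cell embryos alone (2%, against 3.78%). It lay 69.9 kb inside there, and 330.1 kb outside in siControl embryos of that stage. At the 4-cell stage it lay 1530.1 kb (siControl) and 1630.1 kb (siRif1) outside. The symbols Psmc3ip, a meiotic recombination gene, and Psme3ip1, for a partner of the activator Psme3, match the rule although they encode no proteasome subunit, and both were outside LADs in every list.

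The comparison of siRif1 with siControl embryos at the 4-cell stage asks which genes differ in lamina contact when an siRNA against Rif1 is given. The state differed for 7 proteasome genes (14%, against 15.1% of all protein-coding genes). A LAD in siRif1 but no LAD in siControl embryos was found for 3 (6%), namely Psmc2, Psme4 and Psmg4, against 7.22% of all protein-coding genes. The reverse was found for 4 (8%), namely Psmd2, Psmd6, Psmd7 and Psmg1, against 7.92%. These shares are near those of all genes. Psma1, Psma2, Psma4, Psmc1 and Psme2b were LAD in both (10%, against 16.3%). The non-ATPase genes that differed, Psmd2, Psmd6 and Psmd7, were LAD in siControl embryos, and the ATPase gene that differed, Psmc2, in siRif1 embryos. Psmd7 lay within 100 kb of a border in both lists, and Psmd6 in the siControl list.

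The same comparison at the 8-cell stage found 4 genes that differed (8%, against 16.4%). Psmc1, Psmc2 and Psmf1 (6%, against 7.18%) had a LAD in siRif1 alone, and Psmd14 (2%, against 9.18%) in siControl alone. For each of Psmc1, Psmc2 and Psmf1 a border lay within 100 kb of the midpoint in at least 1 of the 8-cell lists, so of the 4 only Psmd14 lay over 100 kb from a border in both. Psma1 and Psma2 were LAD in both (4%, against 16.6%).

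Between the stages, siControl embryos differed in 8 proteasome genes (16%, against 20.3% of all protein-coding genes). At the 4-cell stage alone 7 were LAD (14%, against 9.39%), namely Psma4, Psmc1, Psmd2, Psmd6, Psmd7, Psme2b and Psmg1. At the 8-cell stage alone only Psmd14 was (2%, against 10.9%), and Psma1 and Psma2 were LAD at both (4%, against 14.8%). Borders were close for some of the 7: in siControl 4-cell embryos Psmd6 lay only 16.6 kb and Psmd7 84.4 kb inside a LAD. In siControl 8-cell embryos Psmc1 lay only 16.8 kb outside. Leaving out genes within 100 kb of a border kept 42 proteasome genes, and the count of 7 fell to 4. The 9.39% of all protein-coding genes was not restricted in this way. The proteasome genes in LADs numbered 9 at the 4-cell and 3 at the 8-cell stage, while LAD bases in control embryos numbered 785.7 Mb and 1066.7 Mb.

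In siRif1 embryos 5 genes differed between stages (10%, against 17.1%). Psma4, Psme2b, Psme4 and Psmg4 were LAD at the 4-cell stage alone (8%, against 8.41%), and Psmf1 at the 8-cell stage alone (2%, against 8.65%). Psma1, Psma2, Psmc1 and Psmc2 were LAD at both (8%, against 15.1%). Each list enters 2 of these comparisons, so they are not independent of each other: Psma4 and Psme2b were LAD at the 4-cell stage alone with either siRNA, whereas Psmc1 was LAD at both stages in siRif1 and at the 4-cell stage alone in siControl embryos. Differences between these comparisons were not tested.

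**Figure D3:**
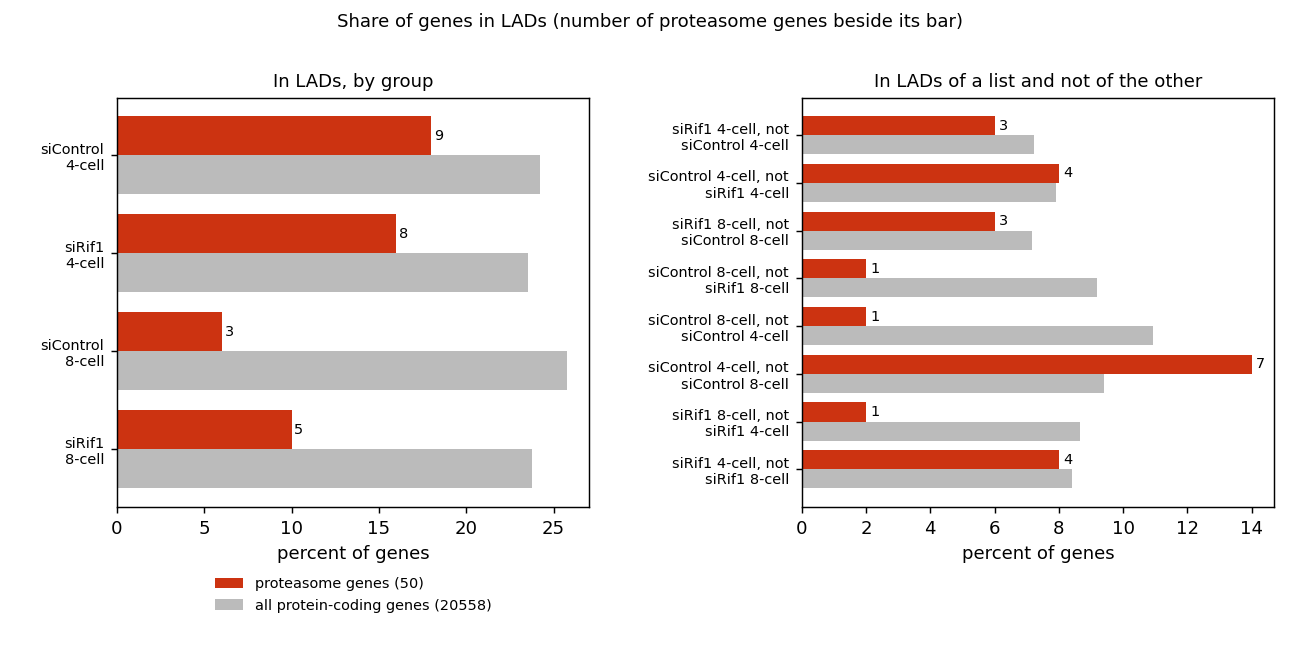
Bars give the percent of the 50 proteasome genes and of the 20558 protein-coding genes in LADs in each list (left), and in LADs of a list and not of the other list of a comparison (right), with the number of proteasome genes beside its bar. The proteasome share is below that of all genes in each list, from 18% against 24.2% in siControl 4-cell to 6% against 25.8% in siControl 8-cell embryos.

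LADs were less common at the gene midpoints than 1000 kb away, for proteasome genes and for all protein-coding genes. In siControl 8-cell embryos 6% of proteasome genes had a LAD at the midpoint, 20% had one 500 kb upstream in chromosome order and 22% 500 kb downstream, and 28% and 34% had one at 1000 kb on either side. For all protein-coding genes the values were 25.8% at the midpoint, 31.5% at 500 kb on both sides and 35.0% and 34.6% at 1000 kb. In siRif1 8-cell embryos the proteasome values were 10% at the midpoint, 20% and 16% at 500 kb and 22% and 24% at 1000 kb, where all genes had 31.6% on both sides. At the 4-cell stage the siControl values were 18% at the midpoint and 22% and 26% at 1000 kb, against 26.1% on both sides for all genes. With siRif1 they were 16%, 28% and 28%, against 31.0% and 31.3% for all genes at 1000 kb. No LAD base lay within 500 kb of 29 proteasome genes (58%, against 54% of all) with siControl and 29 (58%, against 53.3%) with siRif1 at the 4-cell stage. At the 8-cell stage this held for 29 (58%, against 48.7%) with siControl and 34 (68%, against 50.4%) with siRif1. The median LAD share of the 1 Mb around proteasome genes was 0% in each list, as it was for all protein-coding genes except in siControl 8-cell embryos (3.05%). No LAD base lay within 500 kb in any list for 19 proteasome genes (38%), against 30.5% of all protein-coding genes.

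**Figure D4:**
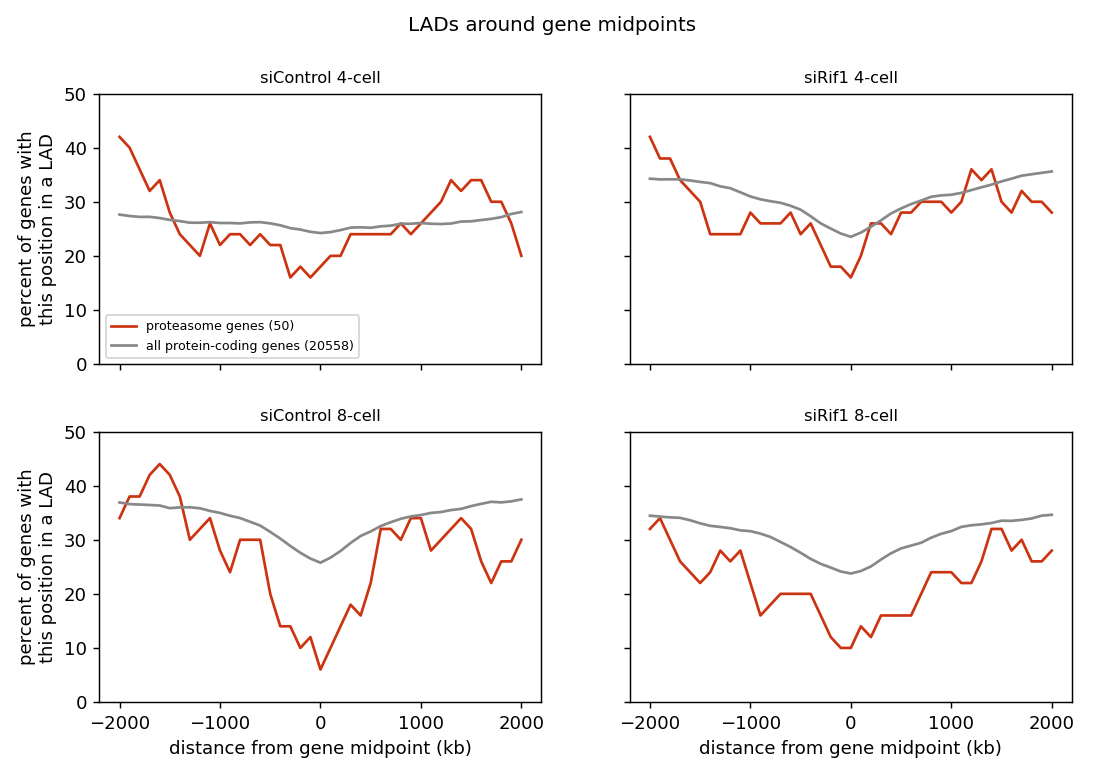
The vertical axis gives the percent of genes for which the position at the given distance from the midpoint (kb, in chromosome order) lay in a LAD, for proteasome genes and all protein-coding genes in each list. The proteasome curve has its lowest value, 6%, at the midpoint in siControl 8-cell embryos, and reaches 28% and 34% at 1000 kb on either side.

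Proteasome genes in LADs stood in regions with fewer genes than the others. The 14 genes LAD in at least 1 list had a median of 8.5 other protein-coding genes within 500 kb (range 3 to 25), and the 36 outside LADs throughout a median of 24.5 (range 3 to 54). For all protein-coding genes the medians were 10 and 20. Of the 12 proteasome genes with 0 to 9 such neighbours, 8 (66.7%) were LAD in at least 1 list, against 67.5% of all protein-coding genes with as many neighbours. With 10 to 19 neighbours it was 4 of 14 (28.6%, against 36.2%), with 20 to 29 it was 2 of 7 (28.6%, against 25%), and with 30 or more 0 of 17 (0%, against 27.8%). All 5 pairs of proteasome genes that lie within 500 kb of each other are among these 17, which are thus not 17 independent positions. By single list the shares rest on 7 to 17 proteasome genes in each range of neighbours. With 0 to 9 neighbours, 50% of proteasome genes were LAD with siControl (against 44.2%) and 33.3% with siRif1 (against 47.6%) at the 4-cell stage, and 25% with siControl (against 44.4%) and 25% with siRif1 (against 39.7%) at the 8-cell stage. With 10 to 19 neighbours the shares were 7.14% (against 21%) and 21.4% (against 17.2%) at the 4-cell stage, and 0% (against 20.6%) and 14.3% (against 19.4%) at the 8-cell stage, in the same order of siRNAs. With 20 to 29 neighbours they were 28.6% (against 12.2%) and 14.3% (against 10.5%) at the 4-cell stage. At the 8-cell stage both were 0%, against 13.7% and 14%. With 30 or more neighbours they were 0% in each list, against 10.2% to 17.2%. The genes themselves were short, with a median length of 11.9 kb against 17.6 kb for all protein-coding genes. The part of gene density in the position of these genes was not tested.

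**Figure D5:**
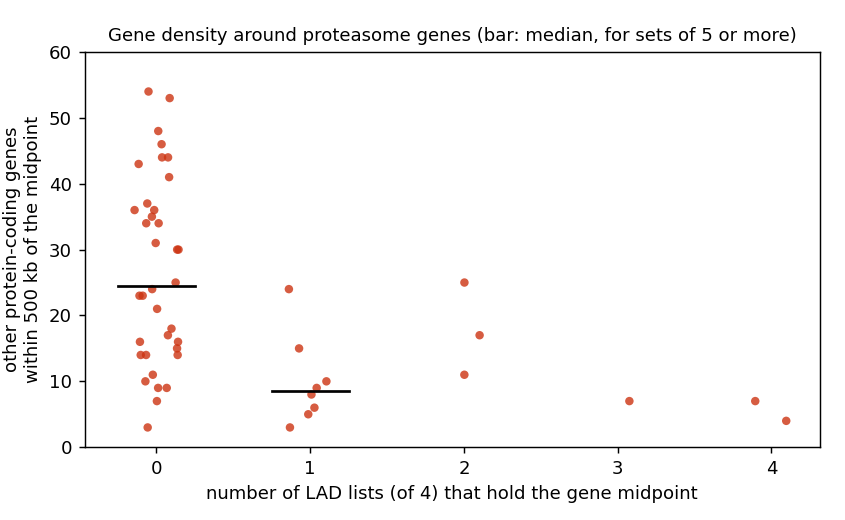
Each point is a proteasome gene, placed by the number of LAD lists that hold its midpoint (horizontal, spread slightly within each number) and by the other protein-coding genes within 500 kb (vertical). The 36 genes in no list have a median of 24.5 neighbours, and each gene with 30 or more neighbours is among them.

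Genes that act with the proteasome were followed through a list of 38, of which 36 were placed on chromosomes 1 to 19. Of these, 11 (30.6%) with siControl and 7 (19.4%) with siRif1 were in LADs at the 4-cell stage, and 7 (19.4%) with siControl and 9 (25%) with siRif1 at the 8-cell stage. All protein-coding genes had 24.2%, 23.5%, 25.8% and 23.8% in the same order. The share of these genes was thus above that of all genes in siControl 4-cell and siRif1 8-cell embryos. It was below in siRif1 4-cell and siControl 8-cell embryos. Sem1, a small 19S subunit whose symbol falls outside the rule, and Uchl5, the deubiquitinase that binds the 19S particle, were LAD in all 4 lists (5.56%, against 9.47%). Nfe2l1, which encodes Nrf1, and Adrm1, the ubiquitin receptor of the 19S particle, were LAD in none, as were 20 others (61.1% together, against 58.3%). A state that differed was found for 12 of 36 (33.3%, against 32.2% of all protein-coding genes).

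Of these 12, Nfe2l2, for the stress regulator Nrf2, and the ubiquitin gene Rps27a were LAD in siControl 4-cell embryos alone, as was the conjugating enzyme gene Ube2d2a. These 3 are 8.33% of the 36, against 4.87% of all protein-coding genes. Pomp, the assembly factor of the beta ring, was LAD in siRif1 8-cell embryos alone (2.78%, against 3.78% of all protein-coding genes). It lay 731.8 kb inside a LAD there, and 131.8 kb outside in siControl 8-cell embryos. Ufd1, a cofactor of the unfoldase VCP, was LAD in both siRif1 lists alone (2.78%, against 0.963%), as Psmc2 was. It lay 23.5 kb inside a LAD in siRif1 4-cell and 223.5 kb inside in siRif1 8-cell embryos, and 1676.5 kb and 176.5 kb outside in siControl 4-cell and 8-cell embryos. Ngly1, which activates Nrf1 by removing sugar chains, and Uba3 of the NEDD8 pathway were LAD in every list but siControl 8-cell, as Psmc1 was. This pattern held for 5.56% of these genes, against 1.52% of all protein-coding genes. Uba3 lay only 5.4 kb inside a LAD in siControl 4-cell and siRif1 8-cell embryos, so its calls there rest on less than 1 bin. Txnl1, a redox protein of the 19S particle, and the activating enzyme gene Uba6 were LAD in every list but siRif1 4-cell, a pattern of 1.14% of all protein-coding genes and of no proteasome gene. The proteasome-binding Zfand5 and the conjugating enzyme gene Ube2d1 were LAD in every list but siRif1 8-cell, a pattern of 3.22% of all protein-coding genes and of no proteasome gene. In the list where each was outside LADs, Txnl1 lay 77.6 kb and Zfand5 79.3 kb outside. Ube2d3 was LAD in both 8-cell lists alone, and lay 46.8 kb outside in both 4-cell lists. The share of all protein-coding genes with the pattern of Ube2d3 was not counted.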

How the data were processed

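DNA from 12 samples was sequenced after DamID. Per the submitters' processing notes, reads were handled with Trimmomatic, Bowtie2, SAMtools and Picard on mm10 (GRCm38), and no versions are named. The LAD caller was not given in the sources used here, nor were its thresholds or any correction for free Dam. The 4 deposited lists hold LAD start and end positions on a 100-kb grid, 1 list per group over its 3 replicates. A threshold that moves with depth or replicate spread would change which genes are called.

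Genes are RefSeq entries of GRCm38.p6, without 333 of 47042 entries that carry scaffold coordinates. The 414 protein-coding genes beyond the first or last LAD of a chromosome were kept, since Psma7 is among them. A gene was called LAD when its midpoint lay in a LAD. Promoter windows are 250 bases upstream of the RefSeq start nearest the 5′ end of the annotated gene. Python 3.11.15 and pandas 2.3.3 were used; interval code was tested on simulated positions and set against bedtools 2.31.1. Members, role groups and the pathway list were chosen with earlier results of these data known. Named genes are all members whose state differs or that are LAD in all 4 lists, members with a border within 100 kb, and pathway genes that differ; other genes named were chosen after their values were seen. Counts stand beside the share of all protein-coding genes in place of a test.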

Additional observations from a re-analysis of the deposited data

How the results depend on the processing

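Each of the 8 counts (genes in LADs in 4 lists, genes differing in 4 comparisons) stayed within 1.5 times its value under 5 settings. Genes were placed by the start site, by 50% or by any base of the body, LADs under 300 kb were dropped, or gaps of up to 200 kb were bridged. Counting genes within 500 kb of each other as 1 locus (45 loci) could not change these counts. Both genes of each of the 5 such pairs were outside LADs in all 4 lists. With 45 loci in place of 50 genes, the share outside LADs in all 4 lists would be lower, and it was not computed. The start site was available for 42 of 50 genes, and the midpoint was kept for the others. Under the 5 settings, the state of a single gene changed in a single list, Psmc2 in siControl 8-cell embryos, where any base sufficed. Keeping only the 31 subunits of the core and 19S particle that somatic cells carry leaves fewer genes to count by construction. Of these 31, 5 were in LADs in siRif1 4-cell embryos (8 of all 50), 4 differed between the 4-cell groups (7 of all 50), and 1 between siRif1 stages (5 of all 50). Leaving out genes within 100 kb of a border left 1 gene differing between the 8-cell groups (4 before), 5 between control stages (8 before) and 3 between siRif1 stages (5 before), with fewer genes counted by construction. In a 2 Mb window the median LAD share around the genes was 5% in siControl 4-cell, 6.35% in siRif1 4-cell, 17.8% in siControl 8-cell and 5.66% in siRif1 8-cell embryos, against 0% in 1 Mb and in 200 kb. No paired analysis was possible because each list pools the replicates of its group, and leaving out a replicate could not be done for the same reason. Depth is unknown, so the lists do not show how firmly any border was placed.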

Other observations

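Of the pseudogenes whose symbols match the same rule, 3 are on the autosomes, and they were looked at after the data were seen. Psmb6-ps2 (chromosome 1, 101385850 to 101386663), Psma5-ps (chromosome 10, 85313469 to 85314438) and Psmb5-ps (chromosome 11, 102659055 to 102659929) were outside LADs in all 4 lists. Psmb6-ps2 came nearest, 286.3 kb outside a LAD in both siRif1 lists and 3186.3 kb outside in siControl 4-cell embryos.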
